A study of Mus musculus with 4 samples.

Results

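Elongases and desaturases shape the acyl chains of skin lipids, and 10 of their genes were followed here across 4 skin libraries: Elovl1, Elovl3, Elovl4, Elovl5, Elovl6, Elovl7, Scd1, Scd2, Scd3 and Fads2. They were taken by gene symbol, as families and not by a threshold on values but with earlier results of these data known, from the 23282 symbols listed for each library, and all 10 were found. The libraries came from skin of adult C57BL/6 mice, 1 library per group. WT (Egr1+/+) naive and Egr1 knockout (Egr1-/-) naive skin carry the treatment label SDS, a detergent used to break the skin barrier. WT and Egr1 knockout HDM-challenged skin received SDS and then 100 mg of a cream with house dust mite (HDM) extract, 2 times per week for 3 weeks. The SDS step is thus shared by all groups according to their labels, and 2 rounds per week for 3 weeks are recorded for the naive groups as well. The sources do not say whether a library is 1 mouse or a pool, nor whether ear or neck skin was taken. The knockout is of the whole animal, and its disrupted segment is not described.

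ELOVL enzymes carry out the condensing step that adds carbon units to a fatty acyl chain in the endoplasmic reticulum, and each prefers certain chain lengths. Stearoyl-CoA desaturases put the first double bond into saturated chains. In skin, long-chain products feed the sebum of the sebaceous gland and the triglyceride of fat cells, while very long chains enter the ceramides of the epidermal barrier. Mice without Scd1 are known for atrophic sebaceous glands, and mice without Elovl4 for a lethal barrier defect.

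Values are the authors' deposited log2 values, which behave as a scaled read number plus 1. That scale was read from the values, and genes without a read stood slightly above 0 in the WT libraries (up to 0.03 in naive and 0.041 in HDM skin), so a further adjustment before deposit was not tested and reads, shares and intervals rest on this reading. Recovered reads totalled 9610840 (WT) and 9950023 (KO-labelled) in naive skin and 9443865 (WT) and 10129020 (KO-labelled) in HDM skin. Ratios are given with 95% counting intervals (Clopper-Pearson), which cover counting error and not the spread between animals. With 1 library per group no difference has a replicate check or a p-value, and every comparison is between libraries, not conditions.

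Facts about the libraries bear on every result below. Egr1 itself stood at 11.02 (WT) and 11.53 (KO-labelled) in naive skin and 10.31 (WT) and 11.68 (KO-labelled) in HDM skin. The 3′ tag may lie outside the disrupted segment, so the value checks no label, and the libraries are called KO-labelled. Xist was at 3.53 and 5.26 in the naive libraries and at 11.21 and 11.16 in the HDM libraries, and the Y-linked gene Ddx3y at 10.99 and 11.15 against 1.08 and 0.94. HDM and this sex-linked difference cannot be told apart. The 13 listed salivary and lacrimal gland genes in the files summed to 72330 and 8259 RPM (reads scaled to an equal total in every library) in WT and KO-labelled naive skin, and 73.3 and 15.8 in the HDM libraries. The 11 cartilage markers summed to 2700 (WT) and 2319 (KO-labelled) RPM in naive skin and to 1526 in WT HDM, but to 6.81 in KO-labelled HDM skin, where Col2a1, Col9a1, Col11a2, Matn1 and Matn3 were at 0 reads. These marker levels thus differ in every comparison with that library, and their part in the results was not tested. KO-labelled naive skin lacked any read of 336 genes that reached 50 reads in all the others, a pattern seen for 0 to 5 genes elsewhere. None of the 10 genes was at 0 there.

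The sequences before the transcription starts are shown first, because the study's factor EGR1 binds GC-rich DNA. RefSeq promoter windows (build GRCm38.p6, the coordinates of mm10) matched 7 of the 10 symbols with 8 starts, and not Elovl3, Scd1 and Scd2. The 250 bases before each start were searched on both strands for the EGR letters GCGTGGGCG and GCGGGGGCG, the SREBP letters TCACNCCAC, CCAAT (NF-Y), GGGCGG (Sp1), TATAAA, and the nuclear receptor half-site AGGTCA repeated with a spacer of 1 (DR1) or 4 (DR4). Capitals mark any match, and a GGGCGG match on the opposite strand reads CCGCCC. The 5 windows below were chosen because Elovl1 and Elovl4 had higher, and Elovl6 and Scd3 lower, values in WT HDM than in WT naive skin. They are examples only. Elovl7 was also higher and Elovl5 also lower there, and their windows are described below but not printed. The printed windows thus give no comparison of motifs between higher and lower genes.
Elovl1, first start, chr4:118427843-118428092, plus strand: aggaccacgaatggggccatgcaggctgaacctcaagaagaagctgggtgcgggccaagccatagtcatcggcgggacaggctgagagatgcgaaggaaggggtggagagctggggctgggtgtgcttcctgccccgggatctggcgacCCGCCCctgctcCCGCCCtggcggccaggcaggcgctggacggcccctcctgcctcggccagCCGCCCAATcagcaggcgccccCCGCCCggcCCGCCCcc
Elovl1, second start, chr4:118429451-118429700, plus strand: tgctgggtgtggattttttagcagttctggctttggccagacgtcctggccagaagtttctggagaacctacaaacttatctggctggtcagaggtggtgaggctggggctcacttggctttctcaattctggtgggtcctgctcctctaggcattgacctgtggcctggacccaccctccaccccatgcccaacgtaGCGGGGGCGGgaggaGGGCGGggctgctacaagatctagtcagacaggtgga
Elovl4, chr9:83806306-83806555, minus strand: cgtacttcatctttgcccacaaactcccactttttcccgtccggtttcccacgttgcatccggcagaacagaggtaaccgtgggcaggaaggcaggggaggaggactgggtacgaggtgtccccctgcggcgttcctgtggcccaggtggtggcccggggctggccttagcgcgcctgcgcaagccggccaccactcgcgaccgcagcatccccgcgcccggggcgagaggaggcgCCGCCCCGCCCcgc
Elovl6, chr3:129532136-129532385, plus strand: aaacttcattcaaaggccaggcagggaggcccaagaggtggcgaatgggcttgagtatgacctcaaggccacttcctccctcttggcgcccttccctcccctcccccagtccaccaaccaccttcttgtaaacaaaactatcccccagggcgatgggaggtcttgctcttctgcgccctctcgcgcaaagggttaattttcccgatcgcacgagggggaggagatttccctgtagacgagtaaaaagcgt
Scd3, chr19:44203038-44203287, plus strand: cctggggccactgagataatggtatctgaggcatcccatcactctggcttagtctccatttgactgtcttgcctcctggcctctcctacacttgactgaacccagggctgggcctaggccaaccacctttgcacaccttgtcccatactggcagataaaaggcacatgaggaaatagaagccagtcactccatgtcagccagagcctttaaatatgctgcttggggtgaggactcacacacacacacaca

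The letters GCGGGGGCG were found in 1 of the 8 windows, at -52 from the second Elovl1 start, where they overlap a GGGCGG match. They were in 2.57% of all 32851 windows. GCGTGGGCG, present in 0.536% of windows, was in none of the 8. GGGCGG was in 5 of the 8 windows, those of Elovl1 (both starts), Elovl4, Elovl7 and Fads2, against 32.7% of all windows. CCAAT was in 2 of the 8, at Elovl1 and Elovl5, against 33.8%, and in the first Elovl1 window it overlaps a GGGCGG match on the other strand. The Elovl6 and Scd3 windows held no match to any of these letters, and no window of the 8 held the SREBP letters (1.05% of all windows), TATAAA (12.4%), DR1 (0.0335%) or DR4 (0.0152%). The GC content was 72.0%, 69.6% and 73.6% at the first Elovl1 start, Elovl4 and Elovl7, and 58.0% at the second Elovl1 start. It was 56.4%, 55.6%, 64.8% and 52.4% at Elovl6, Elovl5, Fads2 and Scd3, against a median of 52.4% over all windows. A match to letters is a description and not evidence of binding.

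Of the 10 genes, 9 lay above the filter on low values (a mean over the 4 libraries above 5.10, the median of all symbols), and Fads2 lay below it at a mean of 2.98. A gene was counted as higher or lower where it differed by 2-fold or more, a size rule and not a test. HDM skin of WT mice had less Scd1, Elovl6, Elovl3, Elovl5 and Scd3 than naive skin, and more Elovl1 and Elovl7. These are 5 lower and 2 higher of 9, where the rule was met by 12.8% of the 11624 measured genes downwards and 14.5% upwards. The median difference of the 9 was -1.55, against 0.03 for all measured genes.

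**Figure D1:**
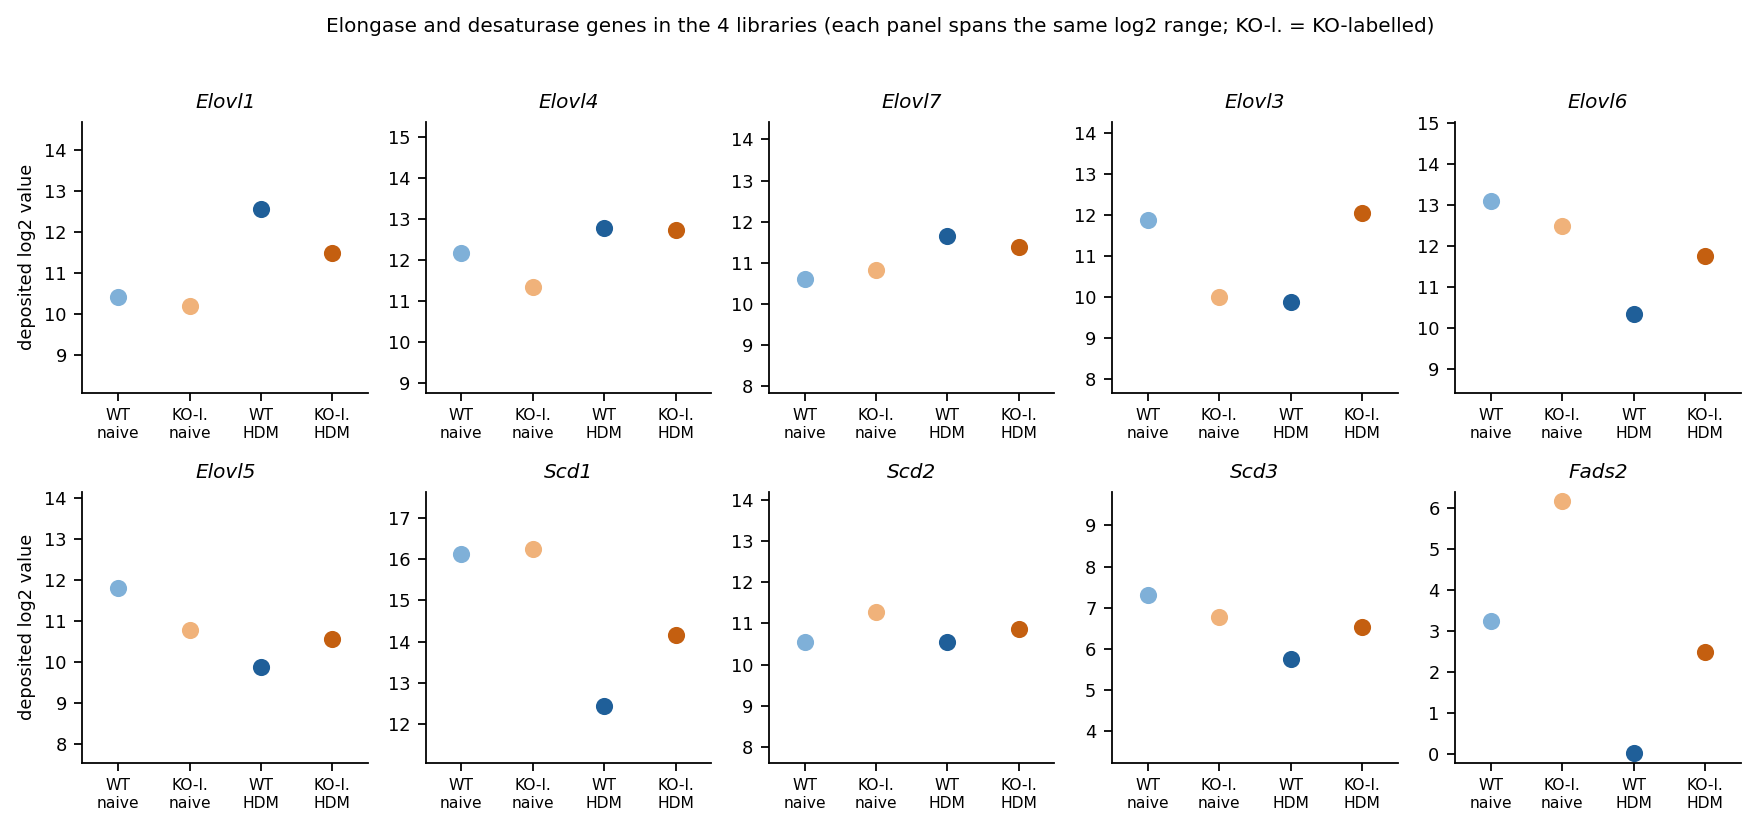
Deposited log2 value (vertical axis) of each of the 10 genes in the 4 libraries (horizontal axis), 1 point per library, with the same log2 span in every panel. Scd1 is between 16.13 and 16.26 in the naive libraries and at 12.44 and 14.17 in the HDM libraries, while Elovl1 is at 10.42 and 10.19 in naive and 12.56 and 11.48 in HDM skin.

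Scd1, the main desaturase of sebaceous gland and fat (chr19:44394455-44407879, minus strand), was the most abundant of the 10 in read number in 3 libraries. Log2 values of Scd1 stood at 16.13 (WT) and 16.26 (KO-labelled) in naive skin and 12.44 (WT) and 14.17 (KO-labelled) in HDM skin, from 67818, 83901, 5139 and 19629 reads. Both naive libraries were above both HDM libraries. HDM skin had 12.9-fold less Scd1 than naive skin in WT (12.6 to 13.3) and 4.26-fold less in KO-labelled mice (4.19 to 4.33). Between the HDM libraries the KO-labelled one had 3.33-fold more (3.23 to 3.43), and between the naive libraries 1.10-fold more (1.09 to 1.11).

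Elovl6, which lengthens palmitate to stearate and so makes a substrate of stearoyl-CoA desaturases (chr3:129532355-129638495, plus strand), was likewise lowest in WT HDM skin. It stood at 13.10 (WT) and 12.48 (KO-labelled) in naive skin and 10.35 (WT) and 11.75 (KO-labelled) in HDM skin. HDM skin was 6.73-fold lower in WT (6.34 to 7.16) and 1.66-fold lower in KO-labelled mice (1.60 to 1.73). Only the first of these reached 2-fold. The KO-labelled HDM library had 2.65-fold more Elovl6 than WT HDM (2.48 to 2.83).

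Elovl5, an elongase of polyunsaturated chains (chr9:77917364-77984519, plus strand), stood at 11.81 (WT) and 10.79 (KO-labelled) in naive skin and 9.89 (WT) and 10.56 (KO-labelled) in HDM skin. WT naive skin was the highest and WT HDM the lowest, a 3.80-fold difference (3.53 to 4.10). The KO-labelled libraries lay between them and differed by 1.17-fold (1.09 to 1.25). The KO-labelled naive library had 2.03-fold less Elovl5 than WT naive (1.92 to 2.15), a log2 difference of -1.02 that was -0.90 in RPM.

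Scd3, a desaturase of the sebaceous gland that uses mainly palmitate (chr19:44203269-44244016, plus strand), was the least abundant of the 9, with 148 (WT) and 115 (KO-labelled) reads in naive skin and 49 (WT) and 97 (KO-labelled) in HDM skin. It was 2.96-fold lower with HDM in WT skin (2.13 to 4.18). In KO-labelled skin the ratio was 1.18 with an interval that includes no difference (0.894 to 1.56). Over the 4 libraries, centred on each gene's mean, Elovl5 and Scd3 had the most alike pattern of any 2 of the 9 (Euclidean distance 0.40 on the log2 scale).

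Elovl3, which makes very long saturated and monounsaturated chains and is known from sebaceous gland and brown fat (chr19:46131897-46135694, plus strand), went opposite ways in the 2 genotypes. It stood at 11.87 (WT) and 10.01 (KO-labelled) in naive skin and 9.88 (WT) and 12.05 (KO-labelled) in HDM skin, from 3549, 1097, 874 and 4524 reads. WT naive and KO-labelled HDM skin were high and the other 2 libraries low. The 2 low libraries did not differ beyond counting error. With HDM it was 3.98-fold lower in WT skin (3.69 to 4.29), whereas KO-labelled skin held 4.14-fold more (3.87 to 4.42). In the KO-labelled library it was 3.65-fold lower than WT in naive skin (3.41 to 3.91) but 4.51-fold above it under HDM (4.19 to 4.85).

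Elovl1, Elovl4 and Elovl7, which like Elovl3 make very long chains, had higher values in both HDM libraries than in either naive library. Not every difference reached 2-fold, and Elovl3 did not share the pattern. Elovl1, which serves saturated and monounsaturated very long chains in many tissues (chr4:118428093-118432953, plus strand), stood at 10.42 (WT) and 10.19 (KO-labelled) in naive skin and 12.56 (WT) and 11.48 (KO-labelled) in HDM skin. Both HDM libraries were above both naive ones. HDM skin was 4.41-fold higher in WT (4.15 to 4.69) and 2.44-fold higher in KO-labelled mice (2.28 to 2.61). Under HDM the KO-labelled library had 2.12-fold less than WT (2.03 to 2.21), a log2 difference of -1.08 that was -0.98 in RPM.

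Elovl4, which makes the ultra-long chains of barrier acylceramides (chr9:83778692-83806277, minus strand), stood at 12.16 (WT) and 11.34 (KO-labelled) in naive skin and 12.79 (WT) and 12.73 (KO-labelled) in HDM skin. The HDM libraries were again both above the naive ones and differed from each other by 1.04-fold (1.01 to 1.08). That log2 difference, KO-labelled minus WT, was -0.06 as deposited but 0.04 in RPM, so its direction depends on the scaling. HDM skin was 1.54-fold higher in WT (1.48 to 1.60) and 2.62-fold higher in KO-labelled mice (2.51 to 2.74), of which the second passed 2-fold. The KO-labelled naive library was 1.77-fold below WT naive (1.69 to 1.86).

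Elovl7, another elongase of saturated very long chains (chr13:108214404-108285683, plus strand), spanned the smallest range of the elongases. It stood at 10.60 (WT) and 10.82 (KO-labelled) in naive skin and 11.66 (WT) and 11.39 (KO-labelled) in HDM skin. HDM skin was 2.09-fold higher in WT (1.96 to 2.22) and 1.48-fold higher in KO-labelled mice (1.40 to 1.57). The WT difference of 1.06 was 0.99 when totals were taken without the ribosomal RNA gene Rn45s and the salivary and lacrimal gland genes, so it lies at the edge of the 2-fold rule.

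Scd2, the desaturase of brain and of newborn skin (chr19:44293674-44306864, plus strand), differed by less than 2-fold in every comparison. It stood at 10.56 (WT) and 11.28 (KO-labelled) in naive skin and 10.54 (WT) and 10.86 (KO-labelled) in HDM skin. The WT libraries differed by 1.01-fold (0.939 to 1.09), within counting error. The KO-labelled library was 1.65-fold above WT in naive skin (1.54 to 1.76) and 1.24-fold in HDM skin (1.16 to 1.33).

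Fads2, the front-end desaturase that starts polyunsaturated fatty acid synthesis and also makes the sebum acid sapienate in humans (chr19:10062765-10101746, minus strand), had 8 (WT) and 75 (KO-labelled) reads in naive skin and 0 (WT) and 5 (KO-labelled) in HDM skin. KO-labelled naive skin was the highest and the others held few reads. With HDM it was 15.0-fold lower in KO-labelled skin (6.13 to 47.4). The size of that difference depends on the scale, with a log2 value of -3.65 as deposited but -2.52 in RPM plus 1 and -2.45 after trimmed-mean scaling. In WT skin it was 2.61-fold lower if the 0 reads are set to 3, a value that leaves out the counting error of the 8 reads.

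Scd1, Scd2 and Scd3 lie in 1 cluster on chromosome 19 and are close relatives, so shared reads were checked. The longest identical run between the last 500 bases of annotated protein-coding transcripts of any 2 of the 10 genes was 14 bases, between Scd1 and Scd2.

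**Figure D2:**
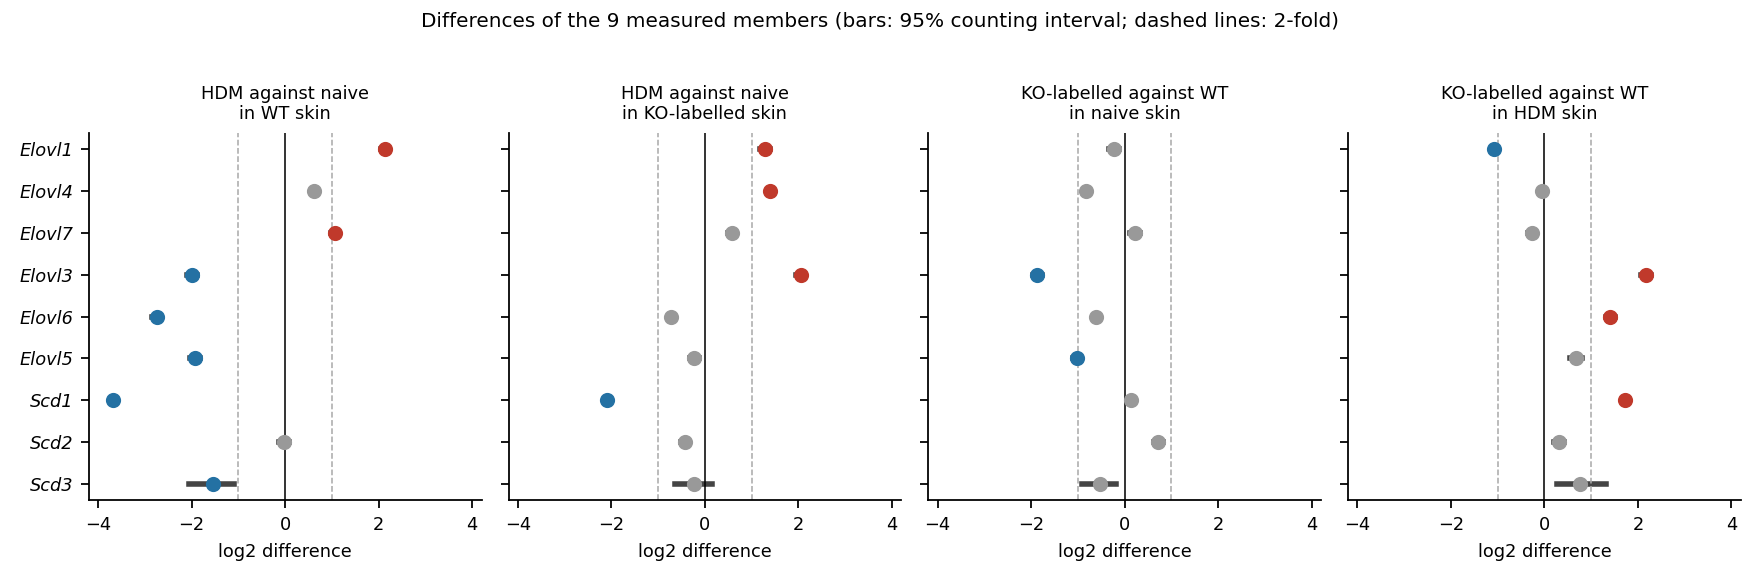
Log2 difference (horizontal axis) of the 9 measured genes in the 4 comparisons. Points are differences of deposited values, coloured red at 1 or above and blue at -1 or below, bars are 95% counting intervals and dashed lines mark 2-fold. Elovl3 lies at -1.99 in WT and 2.05 in KO-labelled skin for HDM against naive.

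In KO-labelled skin with HDM, 3 of 9 genes were higher (Elovl1, Elovl3, Elovl4) and 1 lower (Scd1), where the same rule was met by 21.8% of all measured genes upwards and 18.3% downwards. The median difference was -0.23, against 0.06 for all measured genes. In naive skin the KO-labelled library had 0 of 9 genes higher and 2 lower (Elovl3 and Elovl5), against 13.7% higher and 17.1% lower of all measured genes, with medians of -0.53 and -0.03. In HDM skin 3 of 9 were higher in the KO-labelled library (Elovl3, Scd1, Elovl6) and 1 lower (Elovl1). All 6 measured cartilage markers were lower in the same comparison (median -5.55), and that difference and genotype cannot be told apart. Among all measured genes 3.06% were higher and 4.67% lower there (356 and 543, or 360 and 352 in RPM). The medians in HDM skin were 0.68 for the 9 and -0.01 for all.

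The HDM difference itself was compared between genotypes as a description, since no residual degree of freedom is left to test it. It differed between genotypes by 1 or more on the log2 scale, in either direction, for 5 of 9 genes. Of all measured genes 37.0% differed by that size in either direction. In all 5 the signed value was higher in KO-labelled skin, and the share of all measured genes in that direction alone was not counted. The 5 were Elovl3 (by 4.04, counting interval 3.90 to 4.18), Elovl6 (2.02), Elovl5 (1.70), Scd1 (1.60) and Scd3 (1.31, 0.70 to 1.91). For Elovl6, Elovl5, Scd1 and Scd3 the HDM difference was negative in both genotypes and less so in KO-labelled skin. For Elovl3 it was negative in WT and positive in KO-labelled skin. Elovl1 (-0.85), Elovl7 (-0.49) and Scd2 (-0.41) were on the other side, and Elovl4 stood at 0.77. The HDM contrasts of the 2 genotypes share no library, and neither do the 2 genotype contrasts, but both pairs are built from the same 4 libraries.

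**Figure D3:**
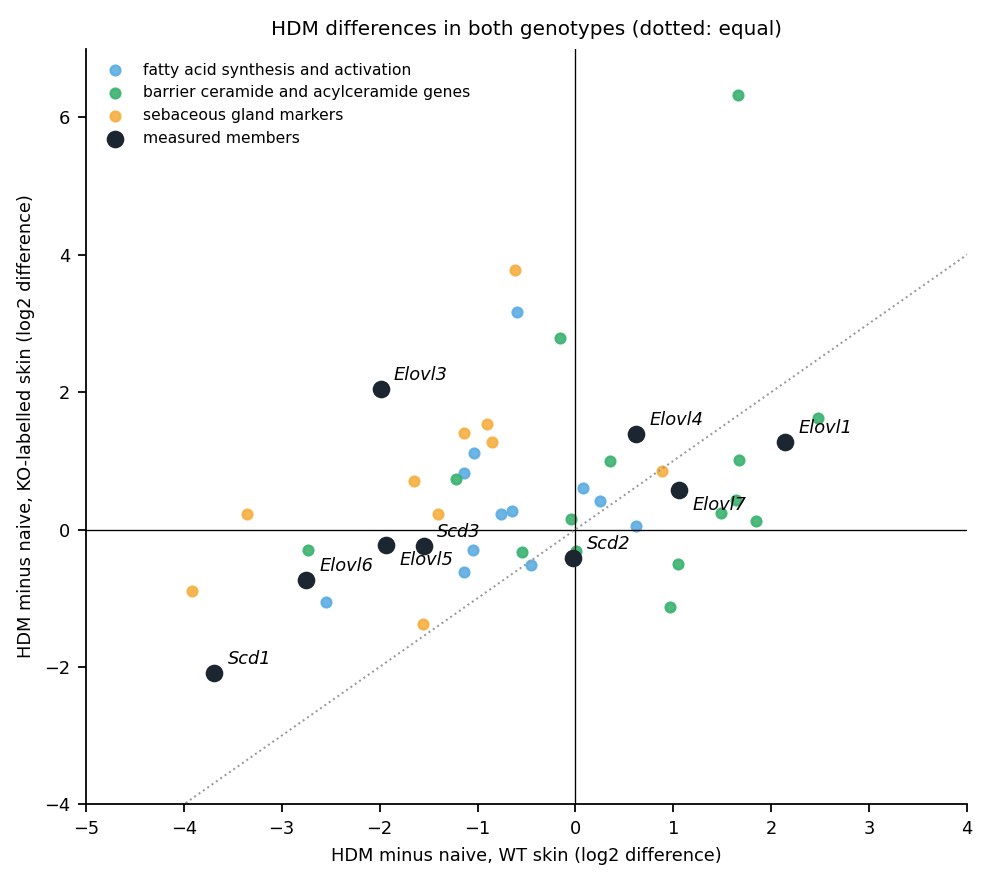
HDM minus naive as a log2 difference in WT skin (horizontal axis) and KO-labelled skin (vertical axis), 1 point per measured gene. Black points are the 9 measured elongases and desaturases, coloured points are genes of 3 related lists, and the dotted line marks equal differences. Scd1, Elovl6, Elovl5, Scd3, Elovl3 and Elovl4 lie above the line, and Elovl1, Elovl7 and Scd2 below it.

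Shares within a library do not depend on how libraries were scaled to each other. Because the 3′ kit yields tags near the transcript end and 1 step per library gave whole reads for 96.2% or more of the genes judged, reads were compared between genes without dividing by length. In WT naive skin Elovl6 held 37.1% of the reads of the 6 elongases (36.5 to 37.8), and Elovl1 5.80% (5.49 to 6.11). In WT HDM skin Elovl6 held 6.67% (6.31 to 7.05), Elovl1 30.9% (30.2 to 31.6) and Elovl4 36.2% (35.5 to 36.9). The leading elongase was thus Elovl6 in both naive libraries, at 40.7% in KO-labelled naive skin, and Elovl4 in both HDM libraries, at 31.5% in KO-labelled HDM skin.

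Elovl1, Elovl4 and Elovl7 together held 31.8% (WT) and 39.5% (KO-labelled) of elongase reads in naive skin and 83.7% (WT) and 57.2% (KO-labelled) in HDM skin. This grouping was made after their values were seen. There were 0.156 Elovl1 reads per Elovl6 read in WT naive (0.147 to 0.166) and 4.63 in WT HDM skin (4.35 to 4.93), and 0.204 and 0.827 in the KO-labelled libraries. Among the 4 desaturases Scd1 held 97.7% and 96.7% of reads in WT and KO-labelled naive skin, and 78.2% and 90.4% in the HDM libraries. Scd2 took most of the remainder, with 21.1% in WT HDM skin (20.1 to 22.1) against 2.06% in WT naive (1.95 to 2.17).

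**Figure D4:**
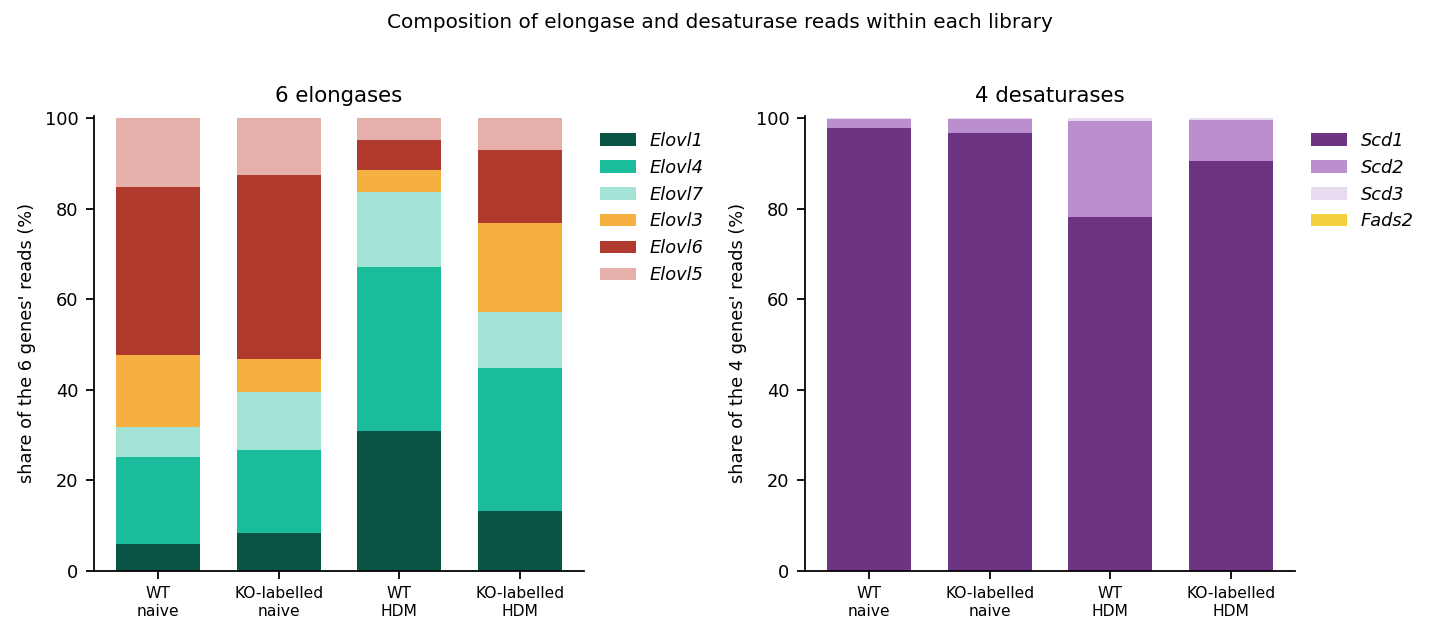
Share of reads in percent (vertical axis) held by each of the 6 elongases (left) and 4 desaturases (right) within each library (horizontal axis), as stacked bars that start at 0. The red Elovl6 segment is 37.1% and 40.7% in the naive libraries and 6.67% and 16.0% in the HDM libraries.

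The enzymes on either side of the elongases were taken from lists of pathway genes. The HDM counts of every list below stand against 14.5% higher and 12.8% lower of all measured genes in WT skin. In KO-labelled skin these shares were 21.8% and 18.3%. Of the rest of the elongation cycle and its electron carriers, 11 of 13 genes were measured, and with HDM in WT skin 1 was higher and 2 lower. The lower ones were the ketoreductase gene Hsd17b12 (2.89-fold, 2.75 to 3.03) and the dehydratase gene Hacd2 (2.11-fold, 1.97 to 2.26). In KO-labelled skin 2 were higher and 1 lower, namely the cytochrome b5 reductase genes Cyb5r1, 4.18-fold higher (3.48 to 5.04), and Cyb5r3, 3.82-fold lower (3.55 to 4.10), and the enoyl reductase gene Tecr, 2.39-fold higher (2.22 to 2.57). Tecr stood at 11.46 (WT) and 9.93 (KO-labelled) in naive skin and 10.79 (WT) and 11.19 (KO-labelled) in HDM skin, so that the KO-labelled naive library alone was low. Cyb5r1 was likewise low in that library alone.

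Of the genes that make and activate fatty acids, 13 of 14 were measured, Elovl6 among them. With HDM 0 were higher and 6 lower in WT skin (median -0.76), against 2 and 1 in KO-labelled skin (median 0.22). The fatty acid synthase gene Fasn was nearly level, at 10.99 (WT) and 10.98 (KO-labelled) in naive skin and 11.25 (WT) and 11.40 (KO-labelled) in HDM skin. Relative to Fasn, Scd1 was lower with HDM, at 35.2 reads per Fasn read in WT naive (33.6 to 36.8) and 2.28 in WT HDM skin (2.17 to 2.40). In KO-labelled skin the same ratio was 38.9 in naive (37.3 to 40.7) and 6.82 in HDM (6.56 to 7.09). Acacb, an acetyl-CoA carboxylase that restrains fat burning, was 5.96-fold lower with HDM in WT skin (4.35 to 8.33) and 2.08-fold lower in KO-labelled skin (1.70 to 2.56). The acyl-CoA synthetase gene Acsl3 was 9.18-fold higher with HDM in KO-labelled skin (6.76 to 12.7), from 46 reads in naive and 421 in HDM skin. It had 393 and 253 reads in WT naive and HDM skin, so that the KO-labelled naive library alone was low.

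Among regulators of lipid synthesis 14 of 15 were measured, with 2 higher and 2 lower with HDM in WT skin against 4 and 1 in KO-labelled skin. The WT counts are near the 14.5% higher and 12.8% lower of all measured genes. In KO-labelled skin the shares of all measured genes were 21.8% and 18.3%. Srebf1, the SREBP gene that drives Scd1 and Elovl6 in liver, stood at 9.28 (WT) and 9.98 (KO-labelled) in naive skin and 8.80 (WT) and 8.99 (KO-labelled) in HDM skin. Pparg, the nuclear receptor of fat cells and sebocytes, stood at 8.56, 8.73, 7.65 and 8.66 in the same order, with WT HDM skin alone low. The receptor gene Ppard was 4.59-fold higher with HDM in WT (3.82 to 5.53) and 5.07-fold in KO-labelled skin (4.15 to 6.23), and Ppara 3.61-fold lower in WT (2.54 to 5.23). Srebf2, the SREBP gene of cholesterol synthesis, had 132 reads in WT naive and 336 in WT HDM skin. The KO-labelled pair had 5 and 242, a 48.6-fold difference (20.5 to 151.0). That fold rests on the 5 reads of KO-labelled naive skin, which alone was low. This is the library that lacked any read of 336 genes read in all the others.

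Barrier ceramide genes included 16 measured of 18 listed, Elovl4 among them. With HDM 7 were higher and 2 lower in WT skin (median 0.80), against 6 and 1 in KO-labelled skin (median 0.34). Cers3, the ceramide synthase that takes the ultra-long chains made by ELOVL4, stood at 7.81 (WT) and 7.86 (KO-labelled) in naive skin and 10.29 (WT) and 9.49 (KO-labelled) in HDM skin. It was 5.60-fold higher with HDM in WT (4.83 to 6.52) and 3.10-fold in KO-labelled skin (2.68 to 3.59). Both HDM libraries were above both naive ones, as for Elovl1 and Elovl4. Cers4, a ceramide synthase of skin appendages, was 6.64-fold lower with HDM in WT skin (6.23 to 7.07).

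Interfollicular keratinocytes, which make the barrier lipids, were marked by 12 listed genes in the files, with summed levels of 21600 and 21650 RPM in WT and KO-labelled naive skin and 20350 and 14640 in HDM skin. Per read of these markers Elovl1 stood at 0.00624 and 0.0291 in WT naive and HDM skin, and Elovl4 at 0.0209 and 0.0341. In KO-labelled naive and HDM skin Elovl1 stood at 0.00580 and 0.0205, and Elovl4 at 0.0128 and 0.0487. Both genes were higher with HDM on this scale, but the 11 measured markers in the sum went opposite ways. With HDM 5 were higher and 4 lower in WT skin, and 3 higher and 6 lower in KO-labelled skin. In WT naive and HDM skin Krt2 had 61036 and 4493 reads and Lor 73598 and 13499, while Krt5 had 28160 and 86154. Among the markers Krt2 had 1 read in KO-labelled HDM skin while Krt77 was at 0 in all libraries but WT naive. Against the basal keratin gene Krt5 alone the picture differed. Elovl4 per Krt5 read was lower with HDM in both genotypes, at 0.154 and 0.164 in WT and KO-labelled naive skin and 0.0760 and 0.0880 under HDM. Elovl1 per Krt5 read was 0.0460 and 0.0650 in WT naive and HDM skin, and 0.0740 and 0.0370 in the KO-labelled pair. The 11 markers of activated epidermis summed to 501.9 and 160.6 RPM in WT and KO-labelled naive skin and to 47140 and 37180 in HDM skin, and the 16 hair follicle markers to 72.3 and 86.2 against 2445 and 5378. Their part in the higher Elovl1, Elovl4 and Elovl7 was not tested.

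The sebaceous gland list held 14 genes, none of them among the 10, of which 10 were measured. Some of them, such as Fa2h, also stand in the list of triglyceride and wax ester genes. In bulk skin, fewer cells of a type and less RNA per cell cannot be told apart. Summed sebaceous markers stood at 3022 (WT) and 2369 (KO-labelled) RPM in naive skin and 774.6 and 2594 in HDM skin. With HDM 6 markers were lower and 0 higher in WT skin (median -1.27), and 1 was lower and 4 higher in KO-labelled skin (median 0.78). Between the HDM libraries 8 of 10 were higher in the KO-labelled one (median 1.62), against 3.06% of all measured genes. The fatty acid hydroxylase gene Fa2h was 4.62-fold higher there (748 reads in WT and 3969 in KO-labelled HDM skin). The sebaceous duct keratin gene Krt79 was 3.62-fold higher (3.45 to 3.81). Gal was at 0 reads in 3 libraries, Mc5r in both KO-labelled ones, Awat2 in KO-labelled naive and Mc1r in WT HDM skin.

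Set against the sum of these markers, Scd1 differed little between the HDM libraries, although the intervals do not overlap. It had 0.703 reads per marker read in WT HDM (0.678 to 0.728) and 0.747 in KO-labelled HDM skin (0.733 to 0.761), while its own level differed 3.33-fold there. Single markers varied in this. Scd1 per Krt79 read was 2.72 in WT and 2.5 in KO-labelled HDM skin, while Far2 was not higher in the KO-labelled library (9.83 and 9.59). In naive skin the ratio of Scd1 to the sum was higher, at 2.34 in WT (2.30 to 2.37) and 3.56 in KO-labelled mice (3.51 to 3.61). Elovl6 per marker read was 0.286 (WT) and 0.260 (KO-labelled) in naive skin and 0.165 (WT) and 0.140 (KO-labelled) in HDM skin. On this summed scale Scd1 and Elovl6 were both lower with HDM in each genotype, and so they were per Krt79 read. That does not hold for every marker. Fa2h stood at 13.58 in WT naive and 9.66 in WT HDM skin, a wider gap than that of Scd1 or Elovl6. In KO-labelled skin Fa2h stood at 12.75 and 11.86, a wider gap than that of Elovl6 but not of Scd1.

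Elovl3 per marker read was 0.122 in WT naive (0.118 to 0.127) and 0.119 in WT HDM skin (0.111 to 0.128), which agree within counting error. In KO-labelled skin it was 0.0465 in naive (0.0438 to 0.0494) and 0.172 in HDM (0.167 to 0.178). The level ratio in WT skin holds for the sum only, of which Fa2h made 11595 of 29044 reads in WT naive and 748 of 7315 in WT HDM skin. Per Krt79 read, Elovl3 was lower with HDM in WT skin, at 1.02 (0.974 to 1.07) and 0.463 (0.427 to 0.502), and per read of the wax synthase gene Awat1 it was 3.61 (3.36 to 3.88) and 2.00 (1.78 to 2.24). In KO-labelled naive and HDM skin it was higher with HDM against each, at 0.339 and 0.576 per Krt79 read and 2.08 and 3.23 per Awat1 read. Elovl5 per marker read was 0.117 in WT naive and 0.120 in WT HDM skin, and 0.0801 and 0.0612 in the KO-labelled libraries.

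**Figure D5:**
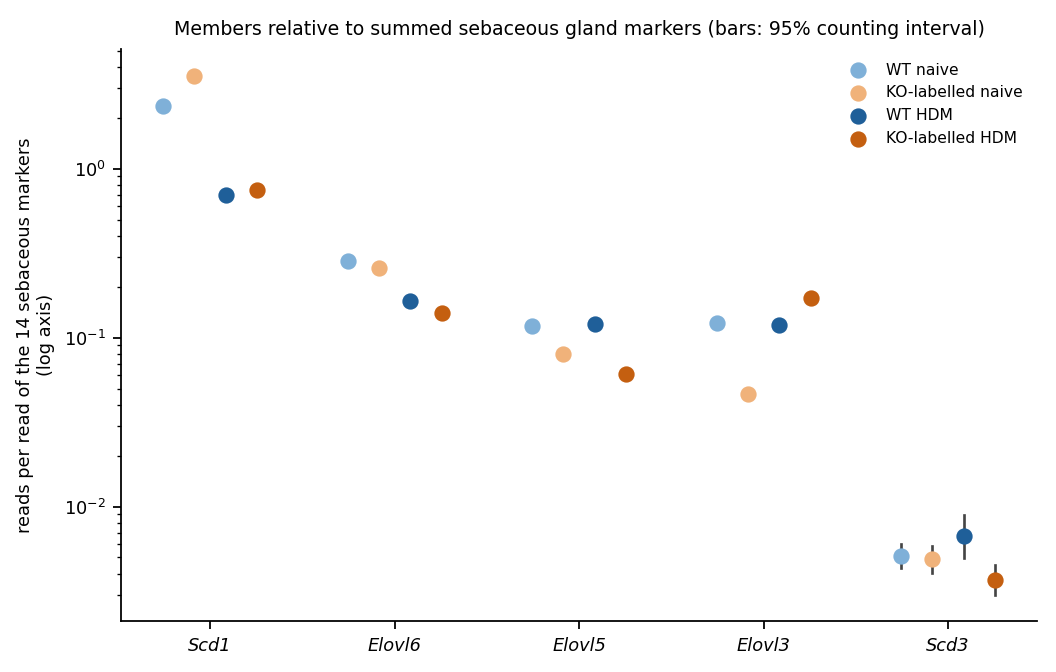
Reads of 5 genes per read of the 14 summed sebaceous markers (vertical log axis), 1 point per library, with 95% counting intervals as bars where they exceed the point. Scd1 lies at 2.34 and 3.56 in the naive libraries and at 0.703 and 0.747 in the HDM libraries.

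Fat cells also express Scd1 and Elovl6. The 15 listed adipocyte markers, 13 of them measured, summed to 2306 (WT) and 7215 (KO-labelled) RPM in naive skin and 1218 and 2516 in HDM skin. With HDM 0 were higher and 5 lower in WT skin, and 2 higher and 7 lower in KO-labelled skin. In naive skin 7 were higher and 1 lower in the KO-labelled library, where Scd1 differed by 1.10-fold. Of all measured genes 13.7% were higher and 17.1% lower in that comparison. Plin1 was at 0 reads in KO-labelled naive skin and Ucp1 in both KO-labelled libraries. Scd1 per adipocyte marker read was 3.06 (WT) and 1.17 (KO-labelled) in naive skin and 0.447 (WT) and 0.770 (KO-labelled) in HDM skin. The part of sebaceous gland, fat and gland tissue content in the differences of the 10 genes was not tested.

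The genes most like each of the 8 measured members that spanned 2-fold or more were found by Euclidean distance over the 4 libraries, among 11615 other measured genes. For Elovl3 they included Acox2, a peroxisomal acyl-CoA oxidase (distance 0.36), and Nrg4 (0.38). Scd1 had no close neighbour, with Tppp nearest at 0.58. For Elovl6 the nearest were Fjx1 (0.07), Il17rb (0.14) and Cmc4 (0.17), and for Elovl5 Slc6a2 (0.06), Atp6v0e2 (0.10) and Ormdl3 (0.12), the last a regulator of sphingolipid synthesis. Scd3 was closest to Cldn10 (0.06), Pex11g (0.08) and the steroid reductase gene Srd5a1 (0.09). Elovl1 was closest to the phosphatidate phosphatase gene Lpin2 (0.08), then Slc7a5 (0.12) and Dpp3 (0.13). Elovl4 was closest to D17Wsu92e (0.04), and Elovl7 to Anp32b (0.04). With 4 points per gene and 11615 candidates such closeness is a description only.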

How the data were processed

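Skin RNA of 4 libraries (1 per group, 500 ng of total RNA each, QuantSeq 3′ kit per the labels' protocols) was analysed. The authors deposited 1 table of log2 values per library, and the submitters' processing notes name Bowtie2, bedtools and mm10. Roles, versions, counting and normalization were not given in the sources used here. On the linear scale (the pseudocount of 1 removed), low values lay on multiples of a step of 1.056 (WT naive), 0.936 (KO-labelled naive), 1.078 (WT HDM) and 0.939 (KO-labelled HDM). Dividing by the step gave whole reads within 0.1 for 98.9%, 96.2%, 98.2% and 99.1% of genes with up to 200 reads. Larger read numbers are approximate, since 3 decimals limit them, and whether the values were adjusted beyond scaling is unknown.

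Calculations used scipy 1.17.1, pandas 2.3.3 and numpy 2.4.6 under Python 3.11.15, and the code was checked on simulated data. The 35 symbols on more than 1 line were left out, and 11624 genes passed the filter. All 10 genes are described. From the other lists the text names some of the 3 measured genes with the largest difference in a comparison, and direct partners of the enzymes. Members and lists were chosen with earlier results of these data known.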

Additional observations from a re-analysis of the deposited data

Results flagged for a closer look

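Several genes differed between genotypes in opposite directions in naive and HDM skin, with both counting intervals excluding no difference. The difference between the contrasts was not tested, since each rests on single libraries. Elovl3 was at -1.99 for HDM against naive in WT skin and at 2.05 in KO-labelled skin, a gap of 4.04, and the same gap separates its genotype differences of -1.87 and 2.17. For KO-labelled against WT, Elovl6 stood at -0.61 in naive and 1.40 in HDM skin, a gap of 2.02. Elovl5 stood at -1.02 and 0.68, a gap of 1.70, and Scd3 at -0.53 and 0.77, a gap of 1.31. Elovl7 was the reverse, at 0.22 and -0.27, a gap of -0.49.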

How the results depend on the processing

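No paired analysis was possible because each group held 1 library, and for the same reason no replicate could be left out. Of 240 values of single genes under other scalings, pseudocounts or treatments of 0 reads, 0 changed the direction of a 2-fold difference, 216 stayed within their counting interval, and none of the 9 measured genes moved by more than 0.15. Fads2, below the filter, moved by up to 2.32. For HDM in WT skin, 1 gene in place of 2 was higher with totals taken without Rn45s and gland genes, or at 3-fold. In KO-labelled skin 1 in place of 3 was higher at 3-fold, and 2 in place of 1 were lower with no filter (Fads2 joins) or at 1.5-fold. For KO-labelled against WT naive skin, 1 in place of 0 was higher with no filter or at 1.5-fold. There 1 in place of 2 was lower in RPM, centred on the median, or at 3-fold, and 4 at 1.5-fold. In HDM skin 5 in place of 3 were higher at 1.5-fold, and 0 in place of 1 lower in RPM or at 3-fold. Scaling to RPM moved the median of all measured genes by 0.12 in the naive comparison. The trimmed mean of M values was computed in Python and changed no count by over 1.5 times. Depth limits Scd3, with 49 to 148 reads, and Fads2, with 0 to 75.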

Other observations

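Among desaturases outside the 10 genes, Degs2 and Fads3 were higher with HDM in both genotypes. Degs2, which makes the phytoceramides of the epidermis, had 84 (WT) and 38 (KO-labelled) reads in naive skin and 472 (WT) and 310 (KO-labelled) in HDM skin, and was 5.74-fold higher with HDM in WT (4.54 to 7.32) and 8.18-fold in KO-labelled skin (5.83 to 11.8). Degs1 stood at 11.06, 11.34, 11.84 and 11.60 in the same order, less than 2-fold apart. Fads3, a desaturase of sphingoid bases, was 2.03-fold higher in WT (1.63 to 2.53) and 5.34-fold in KO-labelled skin (4.14 to 6.96). Fads1, the partner of Fads2 in polyunsaturated fatty acid synthesis, had 317 to 446 reads in the 4 libraries, while Fads2 had 0 to 75. Elovl2, an elongase of polyunsaturated chains, had 17 reads in WT naive skin and 0 in the other 3 libraries, each of which allows up to 3. Scd4 had 6 reads in WT naive and 4 in WT HDM skin, and 0 in both KO-labelled libraries.

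Schwann cells, whose myelin needs much lipid, were marked by 9 genes, all measured. With HDM 9 were lower in WT skin (median -2.35) and 5 in KO-labelled skin (median -1.21), while Scd2 stood at -0.02 and -0.42. Of all measured genes 12.8% were lower with HDM in WT and 18.3% in KO-labelled skin.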
